A study of Mus musculus with 6 samples.

Results

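The regions described are the stretches of open chromatin on mouse chromosome 14 and, within them, those of a 10 Mb block from 110 to 120 Mb (build mm39). Every region that the deposited ATAC-seq table placed on chromosome 14 was kept if its mean over the 6 libraries was at least 10 normalised reads. This gave 1991 of the chromosome's 2064 regions, out of 51253 that passed the same minimum in the whole table of 52957. The other 73 fell below it. The 5 regions just inside the minimum had means of 10 to 10.3 and the 5 just outside it 9.67 to 9.83. The block held 47 regions and the rest of the chromosome 1944.

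ATAC-seq measures accessible DNA by letting the transposase Tn5 insert sequencing adapters, so that reads accumulate over open chromatin. The cells were NIH3T3, an immortalised mouse fibroblast line. Both groups carried a T3H48 hammerhead ribozyme, a self-cleaving RNA, knocked into intron 3 of the gamma-actin gene Actg1, which lies on another chromosome, and had 3 libraries each. In the active group the ribozyme can cut the pre-mRNA that holds it and in the inactive group it cannot, and the series asks how cells respond transcriptionally to such RNA damage. The series describes stable genotyped lines, and from the labels it is not clear if libraries of 1 group are independent cultures or independent lines. Each p-value here thus reflects a spread among libraries that may be technical, and the effects of ribozyme activity and of line identity cannot be told apart. Of 9 fibroblast markers 7 had a promoter region in the table, against 0 of 4 blood, 0 of 3 epithelial and 0 of 3 pluripotency markers. Of 3 endothelial markers only Kdr did, with means of 79 in the active and 6.67 in the inactive group.

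Open regions fall into promoters, which lie at gene starts, are often rich in CG dinucleotides and tend to be open in many cell types, and distal regions, which include enhancers and differ more between cell types. Here a promoter region is one whose centre lies within 1000 bp of an annotated gene start, and every other region is called distal. Mouse chromosome 14 carries housekeeping genes, the T cell receptor alpha locus, and wide stretches poor in genes that hold neuronal adhesion genes such as the Slitrk and protocadherin families. Its far end carries glypican genes, which encode heparan sulphate proteoglycans of the cell surface, and genes of protein folding in the endoplasmic reticulum.

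The block was chosen because its regions were higher in the active group. Its differences are therefore given as a description without p-values, and calls in it are not read as results. The rest of the chromosome was not picked on that difference, and its regions carry the adjusted p of a limma fit over all 51253 regions. Regions of the rest named for the largest rises and falls were picked on their difference, so their p-values are no separate support. Library depth moved with the group: active libraries had an estimated 3710000 to 6840000 unscaled reads in regions and inactive ones 7330000 to 8960000, and the part of depth in the differences below was not tested. Correlations of log2 values across all regions were 0.97 to 0.98 within the active group, 0.98 within the inactive group and 0.82 to 0.83 between groups, over regions of the same 6 libraries. In bulk libraries, more copies of a stretch of DNA, more cells with an open region and a wider opening per cell cannot be told apart.

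The label of a block is borne out only in part by the values. Distal regions between 110 and 120 Mb were raised in the active libraries, while promoters among them lay close to those of the rest of the chromosome. To show what these promoters look like, the 250 bases upstream of the gene start are printed for 3 block promoters whose accessibility was nearly equal in both groups (Gpr180, Dnajc3, Uggt2) and for 3 promoters elsewhere on the chromosome with large differences (Pcdh9, lower in the active group, and Erc2 and Rgcc, higher). The sequences are from RefSeq on build GRCm38.p6, whose coordinates are not those of mm39, and are written 5′ to 3′ along the gene. Capitals mark matches on either strand to the CCAAT box, to the GC box core GGGCGG, to the AP-1 letters TGANTCA, where N is any base, and to the letters GGAATG of TEAD factors. Matches can overlap. For Pcdh9 the first of 2 listed starts is used.

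Gpr180, chr14:118136877-118137126 (+): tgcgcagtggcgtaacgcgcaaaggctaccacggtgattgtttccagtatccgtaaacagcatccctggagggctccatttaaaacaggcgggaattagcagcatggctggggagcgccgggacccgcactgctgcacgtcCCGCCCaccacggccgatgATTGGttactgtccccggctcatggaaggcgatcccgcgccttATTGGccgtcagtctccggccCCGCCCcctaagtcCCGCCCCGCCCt
Dnajc3, chr14:118937682-118937931 (+): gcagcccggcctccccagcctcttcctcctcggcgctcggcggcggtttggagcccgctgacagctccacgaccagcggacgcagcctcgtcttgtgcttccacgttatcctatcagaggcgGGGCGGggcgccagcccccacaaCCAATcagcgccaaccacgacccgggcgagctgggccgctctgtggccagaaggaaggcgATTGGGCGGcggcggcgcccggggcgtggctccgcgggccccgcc
Uggt2, chr14:119099435-119099684 (-): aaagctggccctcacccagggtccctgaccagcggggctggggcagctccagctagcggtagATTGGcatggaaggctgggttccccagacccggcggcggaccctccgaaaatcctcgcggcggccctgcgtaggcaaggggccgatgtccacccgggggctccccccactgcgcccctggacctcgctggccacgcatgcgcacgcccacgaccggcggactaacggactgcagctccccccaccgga
Pcdh9, chr14:93890680-93890929 (-): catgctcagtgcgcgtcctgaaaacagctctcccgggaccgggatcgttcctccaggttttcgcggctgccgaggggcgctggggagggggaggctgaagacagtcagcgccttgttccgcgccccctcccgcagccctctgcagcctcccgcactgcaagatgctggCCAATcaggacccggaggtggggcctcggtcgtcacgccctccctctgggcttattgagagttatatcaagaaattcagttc
Erc2, chr14:27622157-27622406 (+): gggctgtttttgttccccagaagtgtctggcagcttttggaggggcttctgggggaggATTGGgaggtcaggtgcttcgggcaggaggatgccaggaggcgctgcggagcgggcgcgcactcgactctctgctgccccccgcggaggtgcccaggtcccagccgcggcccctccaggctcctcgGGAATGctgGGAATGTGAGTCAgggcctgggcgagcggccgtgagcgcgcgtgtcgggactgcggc
Rgcc, chr14:79301636-79301885 (-): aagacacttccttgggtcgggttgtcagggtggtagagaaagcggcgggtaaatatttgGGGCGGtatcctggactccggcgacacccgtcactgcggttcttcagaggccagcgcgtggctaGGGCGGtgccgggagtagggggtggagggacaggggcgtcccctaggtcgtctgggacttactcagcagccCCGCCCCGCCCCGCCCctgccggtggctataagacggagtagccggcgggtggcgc

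The printed stretches are rich in G and C, at 63.6% in Gpr180, 73.6% in Dnajc3, 71.6% in Uggt2, 63.6% in Pcdh9, 69.6% in Erc2 and 66.8% in Rgcc. The CCAAT box, found in 33.8% of all 32851 RefSeq promoters of the same length, occurred in 5 of these 6 promoters, with Rgcc as the exception. GGGCGG, the core of the GC box, occurred 4 times in Gpr180, 2 times in Dnajc3 and 5 times in Rgcc, against 32.7% of all promoters with a match. Erc2 alone held TGANTCA (6.75% of all promoters), the letters of the AP-1 site, and held GGAATG (12.6%) 2 times. The TATA box letters TATAAA (12.4%), the CRE letters TGACGTCA (1.55%) and the E-box letters CACGTG (6.02%) were searched as well and were not in these 6 windows. Of 8 block promoters with a gene symbol 7 matched a RefSeq promoter, with a median GC content of 63.6%, and 237 of 318 in the rest matched, with a median of 60.4%. Promoters that hardly differed and promoters that differed by more than 2-fold thus both include GC-rich stretches, and a match is a description of letters only.

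Chromosome 14 as a whole was slightly more accessible in the active libraries. Its regions summed to 268124, 270304 and 267977 normalised reads in the active libraries and to 234111, 232020 and 235289 in the inactive ones. The groups did not overlap, and the ratio of their means was 1.15. The median log2 difference (active minus inactive, on log2 of the value plus 1) was 0.16, against -0.02 over all tested regions. By limma, 819 of the 1991 regions (41.1%) were called higher at an adjusted p under 0.05 and 313 (15.7%) lower, while 30.9% of all tested regions were called higher and 29.2% lower. The remaining 859 were not called. All 3 active libraries lay above all 3 inactive ones in 855 regions (42.9%, against 31.8% of all tested regions) and below them in 335 (16.8%, against 30.5%).

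**Figure D1:**
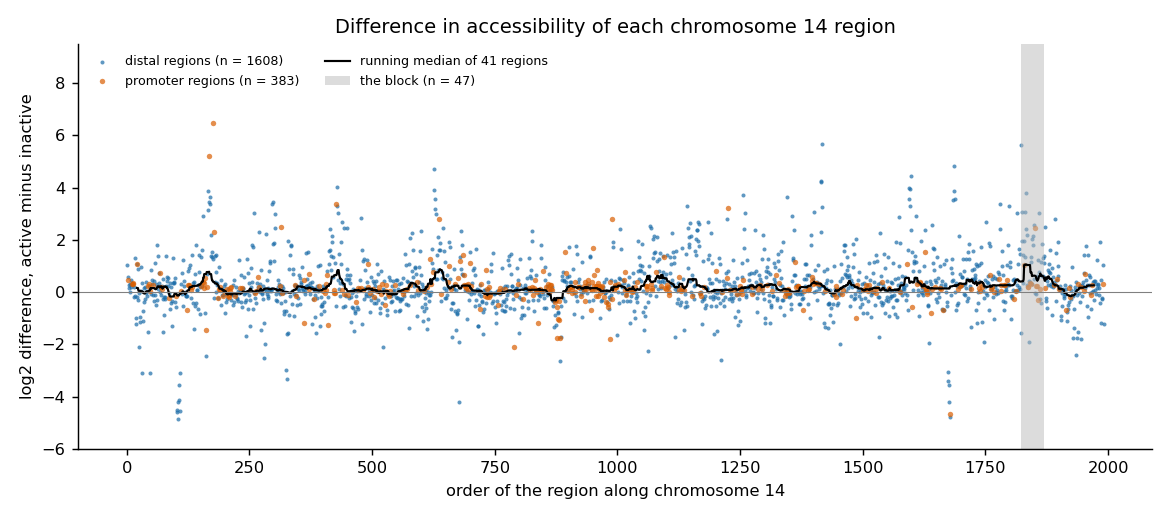
Log2 difference, active minus inactive, of the 1991 regions in their order along chromosome 14 (x axis: rank of the region), with promoters in orange, distal regions in blue, a running median of 41 regions in black and the block shaded. Most regions lie near 0 with narrow groups far above or below it, and the running median reaches its highest level in the block.

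Outside the block, promoters and distal regions sat close together. The 373 promoters had a median difference of 0.13 and the 1571 distal regions one of 0.15, but the distal regions were spread more widely, with a SD across regions of 1.08 against 0.74. Across the 11 windows of 10 Mb with at least 10 promoters, the block included, promoter medians ranged only from 0.07 to 0.30. Distal medians of the 12 windows other than the block ranged from 0.04 to 0.36. Summed over the rest of the chromosome, promoters were at 115236 ± 1846 (SD, n = 3) in active and 102191 ± 1868 in inactive libraries. Distal regions there summed to 146913 ± 549 and 127122 ± 492.

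In the block the 2 classes parted. Its 37 distal regions had a median log2 difference of 1.22 (quartiles 0.41 and 2.03) and its 10 promoters one of 0.22 (0.19 to 0.35). Distal block regions summed to 3715, 3786 and 3848 normalised reads in the active libraries and to 2218, 2066 and 2115 in the inactive ones, a ratio of 1.77. Promoters of the block summed to 2836, 2820 and 2952 against 2411, 2289 and 2384, a ratio of 1.22. Both pairs of groups were apart, and the distal ratio was the wider. The block held 2.47% ± 0.054 of the chromosome's reads in active and 1.92% ± 0.051 in inactive libraries (SD, n = 3 per group).

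Against the mean of the inactive libraries, the distal median of the block was 1.14 in active 1, 1.26 in active 2 and 1.35 in active 3. Each inactive library set against the other inactive ones gave 0.11, -0.05 and -0.07. No single library carried the difference. Of the 37 distal regions, 22 were at or above a log2 difference of 1, where 16.0% of all distal regions were, and 2 of the 10 promoters were, against 4.09% of all promoters. The limma fit over all regions also covered the block. In it 38 of the 47 regions were called higher and 2 lower, where 30.9% and 29.2% of all tested regions were. These counts follow from how the block was chosen and nothing is read from them.

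**Figure D2:**
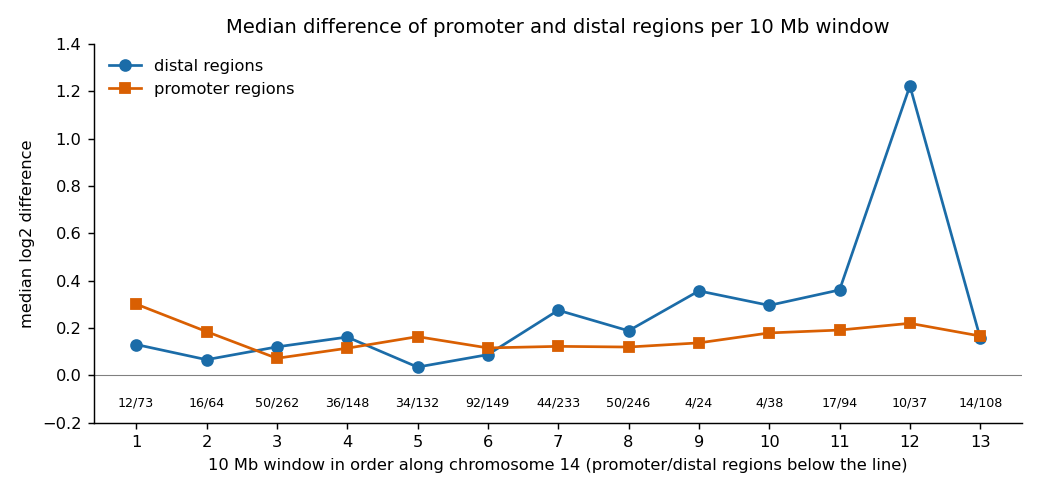
Median log2 difference of promoter (orange) and distal (blue) regions in each of the 13 windows of 10 Mb in order along chromosome 14 (the last is shorter), with their numbers below the line. The promoter line stays between 0.07 and 0.30 throughout, while the distal line rises to 1.22 in window 12, the block.

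The distal regions of the block were weak in the inactive libraries. Their median mean was 19.3 normalised reads there, against 44.7 for distal regions of the rest, and 58.7 against 53.7 in the active libraries. In the inactive group 51.4% of them lay under 20, compared with 21.8% elsewhere on the chromosome. In windows of other chromosomes with similar distal medians, described below, this share was 55.4% (chromosome 12), 53.3% (chromosome 4), 40% (chromosome 6) and 35.8% (chromosome 5). Choosing a block for higher active values favours low inactive values, so nothing is read from this. In the block the log2 difference was also wider among weak regions. Its median was 1.60 in the lowest quartile of mean value and 1.62 in the next, against 0.63 and 0.58 in the upper quartiles. In the rest of the chromosome the same quartiles gave 0.10, 0.24, 0.16 and 0.15. Distance to the nearest neighbour ordered them less: the median was 1.47 for regions with a neighbour within 10 kb, 1.18 at 10 to 50 kb and 1.97 for the 5 more isolated ones.

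Open regions were sparse in the block, at 4.7 per Mb against 17.4 in the rest of the chromosome, and unevenly placed. The windows from 80 and 90 Mb were sparser still, with 28 and 42 regions against 47, and had distal medians of only 0.36 and 0.30. Only 8 of the 47 lay between 110 and 118 Mb, and 39 lay between 118 and 120 Mb, at 19.5 per Mb. All 8 of the sparse part had a positive difference, with a median of 1.70. The dense part had a median of 0.62, made of 9 promoters at 0.22 and 30 distal regions at 1.13. In the sparse part the 7 distal regions had a median of 1.97. The distal regions were therefore raised in both parts, with the smaller median in the dense part, and the promoters of the dense part lowered its overall median further.

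The sparse part opens with a lone distal region at 110250638 to 110251175, with no annotated gene, which had 110, 113 and 116 normalised reads in the active libraries and 2, 1 and 1 in the inactive ones. It was near zero in every inactive library and had the largest difference of the block. The next region lies 1026 bp from the start of Slitrk5, a neuronal membrane protein that helps form synapses, and had 40, 49 and 26 against 6, 10 and 11. At 115274985 to 115275283 a region without an annotated gene had 68, 42 and 61 against 7, 7 and 4. A strong region 2709 bp further on, next to a long noncoding RNA, differed far less, with 574, 737 and 676 against 548, 474 and 543. Its log2 difference of 0.34 was the smallest of the 8.

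Gpc6, a glypican that binds growth factors through its heparan sulphate chains, spans 117162727 to 118213956 and carried most of the next regions. Its promoter region (117162636 to 117164548) had 304, 297 and 318 normalised reads in the active and 143, 137 and 168 in the inactive libraries, a log2 difference of 1.04. The groups did not overlap, and among the 9 other promoter regions of the block only that of Cldn10 differed more. Inside the gene, a region at 117383526 to 117383890 had 63, 46 and 50 against 14, 12 and 12. One at 118167887 to 118168850 had 81, 108 and 93 against 11, 9 and 11. Just past the end of the gene, the region at 118231350 to 118231714 had 23, 28 and 33 against 0, 2 and 2. Promoter, gene body and flank of Gpc6 were thus all higher in each active library.

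Broadly expressed genes of the dense part had promoters with small differences. Dnajc3, a co-chaperone of the endoplasmic reticulum that restrains the stress kinase PERK, had 784, 815 and 866 normalised reads in the active and 741, 661 and 715 in the inactive libraries over the region 119174791 to 119175772. Uggt2, a glucosyltransferase that marks misfolded glycoproteins for refolding, had 303, 277 and 324 against 256, 287 and 297 (119336272 to 119337307), and its groups overlapped. Dzip1, a protein of the base of the primary cilium, had 440, 433 and 412 against 388, 379 and 337. Gpr180, an orphan receptor of the cell membrane, had 484, 511 and 525 against 453, 423 and 455. Tgds, a sugar nucleotide dehydratase, had 118, 122 and 101 against 105, 93 and 100, again with overlap. The log2 differences of these 5 promoters ran from 0.11 in Uggt2 to 0.22 in Dzip1 and Dnajc3.

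Some distal regions inside those genes differed far more than the promoters. Within Uggt2 a region at 119244874 to 119245102 had 25, 32 and 43 normalised reads in the active libraries and 5, 3 and 2 in the inactive ones, and one at 119264698 to 119265499 had 189, 159 and 169 against 97, 109 and 99. Inside Dnajc3 a region at 119186424 to 119186684 had 38, 44 and 47 against 17, 22 and 15. A second, weaker region by the Dnajc3 start had 63, 32 and 45 against 57, 56 and 53, a log2 difference of -0.29 with overlapping groups. Regions of 1 gene thus had differences of unequal size.

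Abcc4, a transporter that exports cyclic nucleotides and drugs, spans 118720104 to 118943631 and held regions with both small and large differences. Its promoter region had 282, 292 and 321 normalised reads in the active and 244, 231 and 244 in the inactive libraries, a log2 difference of 0.31. Inside the gene, regions at 118895525 to 118896187 and 118915852 to 118916567 were more than 2-fold higher, the first with 239, 226 and 268 against 107, 107 and 117 and the second with 198, 217 and 211 against 85, 88 and 71. The strongest intragenic region, at 118803619 to 118804424, had 235, 247 and 255 against 200, 171 and 184, a difference of 0.41, and a region outside the gene, 3664 bp from its start (118946947 to 118947643) had 308, 247 and 266 against 212, 215 and 240. Another intragenic region, at 118872768 to 118873345, had 82, 53 and 94 against 54, 61 and 53 and overlapped. Between Abcc4 and Cldn10, the region at 118987890 to 118989059 had 233, 205 and 240 against 59, 45 and 49, the largest difference among block regions at or above the median mean of all tested regions (61.5).

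Cldn10, a claudin of epithelial tight junctions, was the promoter with the largest difference in the block (log2 difference 2.44), though a weak one. Its region at 119026006 to 119026245, 806 bp from the gene start, had 36, 18 and 21 normalised reads in the active and 5, 3 and 3 in the inactive libraries. A region inside the gene at 119057457 to 119057793 had 24, 16 and 13 against 17, 15 and 21 and overlapped. Opposite to most of the block, the region at 118417631 to 118417942, between Gpr180 and Abcc4, had 7, 9 and 8 against 37, 27 and 35. The region at 119555789 to 119556272 had 67, 62 and 85 against 91, 117 and 79, with overlap.

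**Figure D3:**
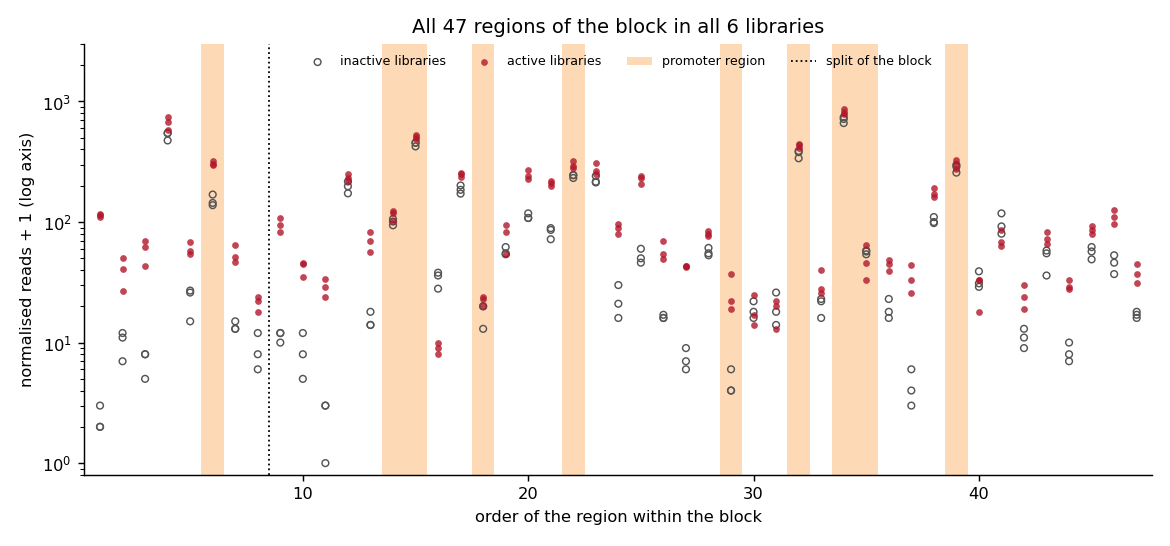
Normalised reads plus 1 (log axis) of the 47 block regions in order, in the 3 active (filled red) and 3 inactive (open grey) libraries, with promoter regions shaded and a dotted line at the split of the block. Most strong promoters show small differences between groups, with Gpc6 as an exception. All active points lie above all inactive ones in 6 of the 10 promoters. This held for 23.2% of all promoters and 44.8% of those in the rest of the chromosome. Many weaker distal regions have groups further apart. All active points lie above in 31 of the 37 distal regions, against 34.2% of all distal regions and 41.4% in the rest. The block was chosen for higher active values. Region 16 goes the other way.

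Centring each region on the median of its own 10 Mb window in the same library asks which regions depart from their surroundings. Over the whole chromosome 488 regions were then called higher and 693 lower, against 22.3% higher and 32.2% lower over all tested regions. In the block 8 of 10 promoters and 15 of 37 distal regions were called below the window median, and 1 promoter and 14 distal regions above it. Of all promoters 38.5% were called below and 9.73% above, and of all distal regions 30.4% and 25.7%. In the 4 windows of other chromosomes described below, the share of promoters called below was 85.7% (chromosome 12), 80% (chromosome 5), 77.8% (chromosome 4) and 69% (chromosome 6). Dnajc3 lay at -0.96, Gpr180 at -0.99 and Uggt2 at -1.08 after centring. The lone region at 110250638 lay at 4.46 and the fallen one at 118417631 at -3.09. The window median is set mainly by the distal regions, which are the majority, and centring on it fixes much of the balance between calls above and below, so nothing more is read from these counts.

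The left border of the block could be placed only to a gap. The last region before it ends at 106507410 and the first inside starts at 110250638, 3.74 Mb further on, the second widest gap between regions of the chromosome after one of 6.34 Mb. A single change point sought by least squares between 100 and 120 Mb fell in this gap for the group means and for each active library against the mean of the inactive ones. The block was chosen on these differences and the range ended at its right edge, so this position is no separate support for the block. The active libraries were also all compared with the same inactive mean. Before the gap the 111 regions had a median difference of 0.26, and the 47 after it one of 1.04. The last region before the gap had 7, 4 and 8 normalised reads in the active and 19, 17 and 25 in the inactive libraries, opposite in direction to the first one after it.

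The right border was less settled. A search from 110 Mb to the end of the chromosome required at least 10 regions a side. The change point fell between 118231714 and 118326272, just past the end of Gpc6. The mean log2 difference was 2.37 over 11 regions before it and 0.27 over 158 after it. With active 3 it fell in the same place, with active 2 before the region that starts at 118370075, and with active 1 only between 120449439 and 120512572. Distal regions alone put it between 120449439 and 120514573, and promoters alone between 119026245 and 119162127. Searches within a class needed only 5 regions a side, and 6 promoters lay before the promoter border. Past 120 Mb the 108 distal regions had a median of 0.16 and the 14 promoters one of 0.17. The right border thus moved between 118.3 Mb and 120.5 Mb with the library and the class of region.

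A search over the whole chromosome did not return the block. The single best change point fell between 13224441 and 13680027, with a mean difference of -0.29 before and 0.32 after it, in the fit to the group means and with active 1 and active 2; with active 3 the region after it started at 13850852. The position was not stable: it lay at 59.8 Mb with a minimum mean of 30, at 58.2 Mb with least absolute deviations and at 20.3 Mb with promoters only. With 2 change points, the best segment was 19890042 to 20264614, holding 20 regions with a mean of 2.18. Each segment had to hold at least 20 regions, so the size of this segment was at the allowed minimum. The group-mean position and this segment both lie at short groups of regions with extreme values, which are described below.

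Windows elsewhere in the genome with a similar distal median had widely different promoter medians. Among 268 windows of 10 Mb with at least 20 regions the block ranked 2 by the median of all regions, and among 267 it ranked 2 by the distal median, but by the promoter median it ranked 45 of 253. The window from 20 Mb on chromosome 6 had a distal median of 1.22 and a promoter median of 0.89. On chromosome 12 the window from 20 Mb had 1.22 and 0.48, and on chromosome 5 the window from 80 Mb had 1.06 and 0.40. The window from 20 Mb on chromosome 4 had 1.11 for 45 distal regions and -0.07 for 18 promoters. The windows were picked for their medians, and the differences between them and the block were not tested.

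**Figure D4:**
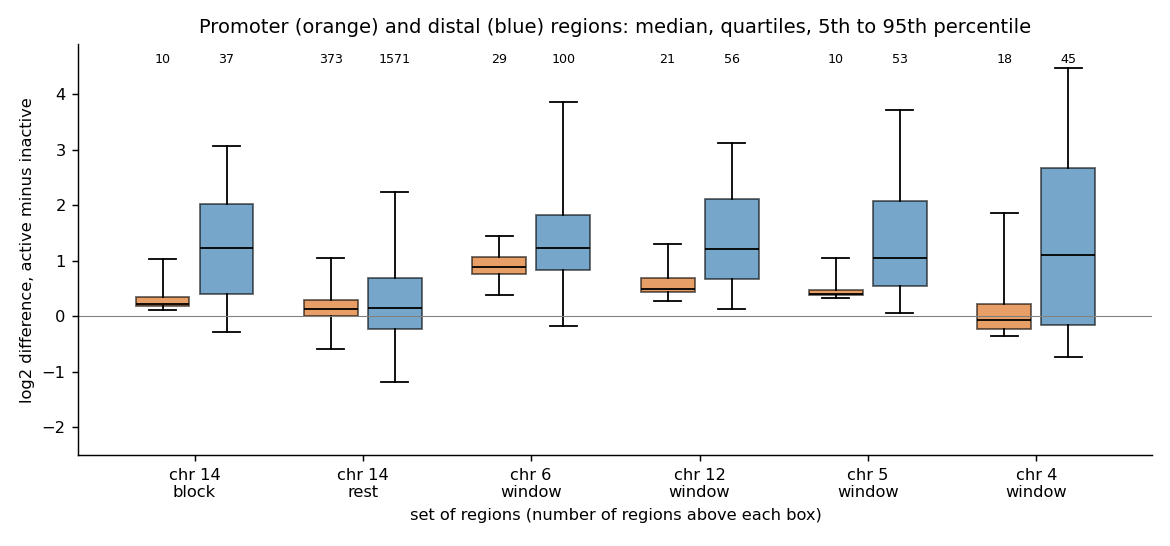
Log2 differences of promoter (orange) and distal (blue) regions in the block, the rest of chromosome 14 and 4 windows of other chromosomes (boxes: quartiles and median; whiskers: 5th to 95th percentile; numbers of regions above). Distal boxes of the block and the 4 windows are alike in level, while promoter boxes range from -0.07 to 0.89 in median.

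The largest differences on the chromosome stood in short runs. Taking at least 3 neighbouring regions that all differed in the same direction by 2 or more on the log2 scale, 8 runs were higher (36 regions) and 2 were lower (14 regions). Over all tested regions 4.52% lay at or above 2 and 1.22% at or below -2. The run rule was chosen after the values were seen, so runs are described without a test. Only 1 of them, the 3 regions at the end of Gpc6 from 118167887 to 118231714, is in the block.

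One lower run lies between PTPRG, a receptor tyrosine phosphatase, and Cfap20dc, from 13011578 to 13224441. By gene order on GRCm38.p6 the protein-coding gene between them is Fhit, a tumour suppressor gene at a fragile site. Its 8 distal regions summed to 21, 26 and 32 normalised reads in the active and 528, 483 and 442 in the inactive libraries. No active library exceeded 9 in any of the 8, and no inactive library was under 32. The next regions lay 2095 kb before and 456 kb after the run, at log2 differences of -0.16 and 0.31, and neither was called by limma. The one after the run had 81, 83 and 67 against 65, 61 and 59, without overlap.

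The other lower run covers Pcdh9, a protocadherin of neuronal cell adhesion. All 6 of its regions lie within or at the start of the gene (93250846 to 94128115), and they summed to 14, 13 and 18 in the active and 352, 352 and 344 in the inactive libraries. The promoter region (94127852 to 94128731) had 7, 4 and 10 against 184, 190 and 199. In the limma fit its log2 difference was -4.66 ± 0.21 (SE), adjusted p = 4.35e-21. Regions on both sides of the gene had differences of -0.53 and -0.11.

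Among the higher runs, Gng2, a gamma subunit of heterotrimeric G proteins, had 6 regions from 19963019 to 20037525 that summed to 498, 532 and 509 in the active and 26, 33 and 46 in the inactive libraries. A region near its start (20026730 to 20027327) had 118, 113 and 113 against 1, 2 and 4. Past the run, the promoter of a long noncoding RNA (from 20132739) had 343, 357 and 314 against 1, 2 and 8, the largest difference on the chromosome (6.48). The first 4 regions of Erc2, a scaffold protein of the presynaptic active zone, ran from 27344157 to 27476658 and summed to 273, 249 and 271 against 18, 26 and 30. Other genic neighbourhoods were those of Gata4, a cardiac and endodermal transcription factor, with 3 regions from 63510353 to 63549855 at 155, 141 and 152 against 33, 34 and 22.

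Another 4 runs lay away from protein-coding gene starts, and gene order on GRCm38.p6 gives their surroundings. Between Wapl and Ccser2, where Grid1 lies, 5 regions from 35241452 to 36063056 summed to 233, 216 and 215 in the active and 12, 15 and 18 in the inactive libraries. Between Xpo7 and Fndc3a, where Dok2 and Gfra2 lie, 5 regions from 71035904 to 71437386 summed to 720, 696 and 734 against 38, 43 and 41. Between Ccdc122 and Dnajc15, where Enox1 lies, 6 regions from 77583702 to 77846240 had the largest sums, 1108, 1090 and 1087 against 127, 117 and 117. Between Pcdh9 and Bora, where Klhl1 and Dach1 lie, 4 regions from 97594406 to 98350800 summed to 303, 293 and 320 against 14, 14 and 14. The rule that defines a run sets the groups apart, so nothing is read from their distance in the 10 runs. The spread within a group differed between runs. Inactive sums were 26, 33 and 46 at Gng2 and 14, 14 and 14 between Pcdh9 and Bora.

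**Figure D5:**
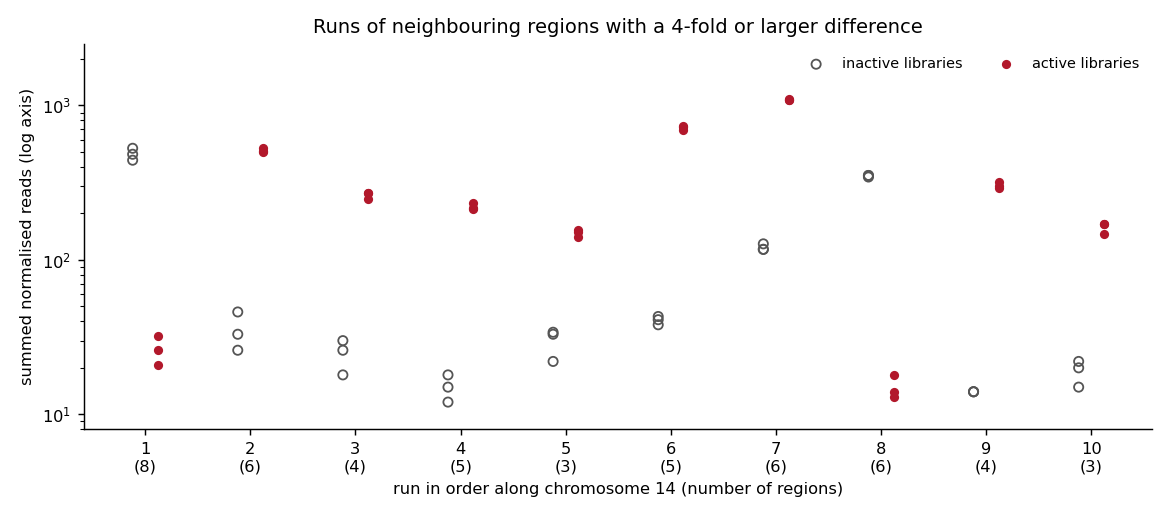
Summed normalised reads (log axis) of the 10 runs of regions in order along chromosome 14, for the 3 active (filled) and 3 inactive (open) libraries, with the number of regions below each run. Runs 1 and 8 (the stretch before Cfap20dc and Pcdh9) are low in the active libraries, the others low in the inactive ones, and run 10 is the one in the block.

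Single stronger regions of the rest of the chromosome also differed. At or above the median mean of all tested regions (61.5), and with a named gene, the largest rises after Erc2 (3.36 ± 0.25, adjusted p = 5.61e-13 by limma) were near Bmp1, 2610528A11Rik and Defb43, followed by Rgcc, Il25, Ldb3 and Cog3. The region inside Bmp1, the procollagen C-proteinase that matures fibrillar collagen, had 108, 106 and 124 normalised reads in the active and 20, 27 and 25 in the inactive libraries (log2 difference 2.19 ± 0.16 SE, adjusted p = 9.25e-15 by limma). At the promoter, Rgcc, a regulator of cell cycle progression, had 370, 419 and 423 against 145, 120 and 150 (1.54 ± 0.09, adjusted p = 1.18e-18). Ldb3, a protein of the muscle Z-disc, had 158, 182 and 182 against 79, 59 and 77. These groups did not overlap.

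The largest falls at the same level after Pcdh9 were at Trav6-7-dv9, a variable segment of the T cell receptor alpha locus, and at Nid2, a basement membrane nidogen. The promoter of Nid2 had 75, 69 and 86 in the active and 217, 207 and 215 in the inactive libraries (log2 difference -1.47 ± 0.11 SE, adjusted p = 5.04e-15 by limma). Trav6-7-dv9 had 47, 35 and 45 against 136, 142 and 159, a difference of -1.77. Trav4-4-dv10, another segment, had 72, 92 and 106 against 185, 185 and 188. Of 20 regions annotated to receptor segments, a group picked after its values were seen, 12 were called lower and 5 higher, against 29.2% and 30.9% of all tested regions. Other falls were near Anxa11os (-1.29), Rnase10 (-1.16) and Mdp1 (42, 39 and 41 against 73, 86 and 89, within Nedd8).

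Housekeeping genes of chromosome 14 had small differences. Of 28 listed, 25 had a promoter region, of which 10 were called higher, 0 lower and 15 not, with a median log2 difference of 0.09. Over all promoters the median was -0.10, with 22.4% called higher and 36.6% lower. Over chromosome 14 promoters it was 0.14, with 43.1% called higher and 8.09% lower. Of the 4 with the highest means, Ipo5, a nuclear import receptor, had 1298, 1371 and 1287 in the active and 960, 920 and 903 in the inactive libraries (0.51 ± 0.04 SE, adjusted p = 4.85e-13 by limma). Psme2, a proteasome activator subunit, had a difference of 0.22 (adjusted p = 2.70e-04) and Prmt5, an arginine methyltransferase, one of 0.19 (adjusted p = 1.33e-03), both by limma. Tpt1, the translationally controlled tumour protein, had 922, 990 and 990 against 935, 908 and 941 and was not called.

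Adhesion, matrix and growth signal genes had a similar median and a wider range. Of 27 listed, 18 had a promoter region, of which 7 were called higher, 1 lower and 10 not, with a median of 0.09; the background was 22.4% higher and 36.6% lower over all promoters, and 43.1% and 8.09% over chromosome 14 promoters. Outside the block the range ran from -1.47 in Nid2, the 1 that fell, to 3.23 in Fzd3, a Wnt receptor with 68, 39 and 51 against 4, 6 and 4. Rarb, a retinoic acid receptor, had 69, 58 and 67 against 33, 33 and 26; it and Fzd3 were picked after their values were seen. Those with the highest means differed less. Vcl, the focal adhesion protein vinculin, had 873, 891 and 832 against 736, 797 and 775 (0.17 ± 0.05 SE, adjusted p = 3.23e-03 by limma). Bmpr1a, a BMP receptor, had 431, 452 and 456 against 397, 396 and 380. Spry2, an inhibitor of growth factor signalling, and Fermt2, an integrin activator, were not called, at 0.03 and 0.07.

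Genes of other tissues seldom had an open promoter here. Only 3 of 23 did, with 1 called higher, 1 lower and 1 not (all promoters: 22.4% higher and 36.6% lower). Gzmb, a cytotoxic granule protease, had 48, 53 and 57 in the active and 9, 3 and 10 in the inactive libraries (2.82 ± 0.30 SE, adjusted p = 1.78e-10 by limma). The lower one was Pcdh9. Fgf14, an intracellular partner of sodium channels, had 41, 34 and 45 against 40, 24 and 34 and was not called.

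Genes known to lie near the end of the chromosome extend the comparison past the block. Of 36 listed, 20 had a promoter region, 8 of them in the block. Of the 12 outside it 8 were called higher, 0 lower and 4 not, with a median of 0.22, where 22.4% of all promoters and 43.1% of those on chromosome 14 were called higher and 36.6% and 8.09% lower. Rap2a, a small GTPase beyond 120 Mb, had 1646, 1703 and 1578 in the active and 1327, 1337 and 1380 in the inactive libraries (0.28 ± 0.04 SE, adjusted p = 5.15e-08 by limma). Dock9, an activator of Cdc42, had 891, 940 and 875 against 713, 716 and 725 (0.33 ± 0.05, adjusted p = 2.53e-07). The differences of both lay above the 0.22 of Dnajc3 in the block, while the distal median was 1.22 in the block and 0.16 beyond it.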

How the data were processed

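ATAC-seq libraries of NIH3T3 cells, 3 with an active and 3 with an inactive ribozyme by their knock-in label, were analysed from 1 deposited table of 52957 regions on build mm39. The deposited values are a score: the authors scaled each library's region reads by its size factor and then rounded, which was read from the values, whose totals were nearly equal (6433944 to 6548535). DESeq2 1.36.0, featureCounts, Picard 3.1.1, STAR 2.7.11a and Trimmomatic 0.39 are named in the submitters' processing notes, and the peak caller is not given in the sources used here. Rounding after scaling leaves no exact counts, so log2(value + 1) was fitted with limma 3.58.1 (R 4.3.3; trend and robust settings, no covariate) for all 51253 regions whose mean reached 10, with Benjamini-Hochberg adjustment over all of them at 0.05. A fold on this scale understates changes of weak regions. A second fit used values minus the median of the region's 10 Mb window per library. Fits and change points were tested on simulated data. Change points needed at least 20 regions a side over the whole chromosome, 10 locally and 5 locally within promoters or distal regions alone. Tables were handled with Python 3.11.15, pandas 2.3.3 and numpy 2.4.6, and plots with matplotlib 3.10.9.

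The members and gene lists were chosen with earlier results of these data known. Named genes follow this rule: in the block, up to 15 promoters and 6 distal regions with the highest means, the 6 largest departures each way after centring, and the 5 regions on each side of a border; in the rest, the 8 largest rises and 8 largest falls near named genes at or above the median mean; and up to 4 members of each list with the highest means. One item that this rule selects is not reported here. Other regions named were chosen after their values were seen. Alternatives tried are given in the closing section. No genome of build mm39 was used here, so sequences of the regions themselves are not printed.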

Additional observations from a re-analysis of the deposited data

How the results depend on the processing

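The number of chromosome 14 regions called higher stayed within 1.5 times of 819 under all alternatives run (623 to 986), and that of lower regions fell from 313 to 207 with a minimum mean of 30, where fewer regions are tested. Leaving out 1 library at a time gave 744 to 793 higher and 262 to 317 lower. After centring on windows the counts stayed within 1.5 times of 488 and 693. The block's median of 1.04 was 0.63 with a minimum mean of 30 and 0.88 after quantile normalisation, and 0.97 to 1.06 with 1 library left out. Chosen after seeing the data, windows shifted by 5 Mb gave 0.26 (105 to 115 Mb) and 0.25 (115 to 125 Mb), and the parts of the block gave 1.70 before 118 Mb and 0.62 after it. The first shifted window holds mostly regions before the gap and the second mostly regions past 120 Mb. The median of the rest (0.15) was 0.14 with a pseudocount of 5 and with no minimum, 0.15 with a minimum mean of 30, 0.12 after quantile normalisation, 0.25 with promoter medians set equal and 0.14 to 0.16 with 1 library left out. Setting promoter medians equal raised all log2 differences by about the same amount, so that the median of all regions became 0.08. The block's promoter median was 0.27 with a promoter distance of 2000 bp. The best single change point over the chromosome (13.7 Mb) moved to 59.8 Mb with a minimum mean of 30, to 58.2 Mb with least absolute deviations and to 20.3 Mb with promoters only, and lay at 110.3 Mb and 118.3 Mb in the searches from 100 to 120 Mb and from 110 Mb on, which were added after seeing the data. The cause of these moves was not tested. With runs defined by a log2 difference of 1 in at least 5 neighbours, also added, 10 runs were higher (67 regions) and 2 lower (14).

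The 16 regions selected for their size outside the block kept call and direction in every alternative. Without the trend in limma, Vcl (limma, adjusted p = 0.134), Bmpr1a, Psme2 and Prmt5 were no longer called, and with equal promoter medians Fermt2 and Tpt1 were. Spry2, not called, turned to -0.060 without active replicate 2 and to -0.01 without inactive replicate 3. Of 24 list promoters called higher outside the block, only 8 were still called higher after centring on windows. After centring 7 lay below 0, 2 of them called lower. Replicate numbers did not pair the libraries, since deviations from the group means correlated at -0.02 to 0.01 between groups. With the replicate block 803 regions were higher and 311 lower, and 484 and 703 after centring. Depth limits the precision of the weakest regions.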
